A study of Homo sapiens with 12 samples.

Results

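The stretch between SPA1 and SPA2 is the part of the imprinted Prader-Willi region on the plus strand of human chromosome 15 that follows the end of the long noncoding RNA SPA1 and stops 1 base before the small nucleolar RNA gene SNORD109A (chr15:25261548-25287120, hg19, 25573 nt). Its members are all positions on that strand and between those bounds in the 12 deposited lists of crosslinked nucleotides. There were 861 of them among 1162690 listed positions, on 733 different nucleotides. All 861 came from the 6 WT libraries, in which FOX2 had 55 and 47, TDP43 349 and 315, and hnRNP M 18 and 77. The 6 P-KO libraries listed none.

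SPA RNAs are long noncoding RNAs with a small nucleolar RNA as their 5′ end and a poly(A) tail as their 3′ end. SPA1 and SPA2 are made from one long transcript that starts upstream, in SNURF-SNRPN, and continues through the SNORD116 cluster, so the stretch between them is transcribed but is kept in neither of the 2 finished RNAs. TDP43 prefers runs of GU repeats and is known for keeping cryptic exons out of mRNAs. FOX2 (RBFOX2) regulates splicing through GCAUG elements, and hnRNP M is an abundant nuclear splicing regulator.

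The libraries are iCLIP, in which ultraviolet light links proteins covalently to bound RNA, an antibody pulls one protein down, and reverse transcription that stops at the link gives its nucleotide. P-KO cells and WT cells, both of H9, an established human embryonic stem cell line, received 400 mJ/cm2 of ultraviolet light, and antibodies to RBFOX2, TDP43 or hnRNP M were used, with 2 libraries for each protein and genotype. The source label of the P-KO cells reads SPA PKO; neither the labels nor the series design give the deleted sequence or the number of clones, and the identity of the cells was not checked against marker genes. Replicates are called biological in the series design, without more detail on how the cultures were kept apart.

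Each listed count was taken to cover 11 nt, so counts of overlapping windows were not added. Starting with the highest count, windows were kept if they lay 11 nt or more from those already kept, and the sum of kept counts, called window counts, ranged from 58191 to 648651 per library. FOX2 and TDP43 WT libraries were of like depth (FOX2 218733 and 288698, TDP43 207788 and 282997), and hnRNP M WT libraries were shallower (61625 and 123482). CPM below means the window counts of a feature scaled to 1000000 in each library. The lists hold only positions with a count of at least 2 and a p or q of at most 0.05, so 0 below means that a library lists no position, and no fold or upper limit is given for it.

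All 3 proteins contacted the stretch in WT cells and none did detectably in P-KO cells. FOX2 was at 0 in P-KO replicates 1 and 2, against 128 and 107 window counts in WT. TDP43 was at 0 in P-KO replicates 1 and 2, against 828 and 632 in WT. hnRNP M was at 0 in P-KO replicates 1 and 2, against 163 and 260 in WT. The groups of each protein did not overlap. In WT, TDP43 averaged 3109 ± 1239 CPM, hnRNP M 2375 ± 381 CPM and FOX2 478 ± 152 CPM (SD, n = 2 each). At the WT mean share of its protein, a P-KO library of its depth would hold 111 and 310.0 window counts (FOX2), 537 and 910.0 (TDP43) or 147 and 138 (hnRNP M).

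The signal of the stretch fell in P-KO cells in the fit across all bins of the same length. The genome was divided by strand into bins of 25573 nt on a grid of which 1 bin is exactly the stretch, and 11761 bins passed the filter on low counts. With edgeR's quasi-likelihood test of a genotype effect shared by the proteins, the stretch had a Benjamini-Hochberg adjusted p of 1.14e-15, and 6 bins in all were lower in P-KO (0.051% of those tested) and 0 higher. For single proteins the adjusted p by edgeR was 4.97e-06 for TDP43 (0.0085% of bins called lower, the stretch being the 1 bin), 0.000251 for hnRNP M (0.034% called lower) and 0.0024 for FOX2 (0.0255% called lower). The share of the stretch, as log2(CPM + 1), fell by 10.54 over the 3 proteins (p = 0.00926 in a two-sided exact permutation test within proteins, whose 216 arrangements allow no smaller value). That size depends on the value of 1 added before the logarithm, since every P-KO library is at 0. With 2 libraries a group, the exact p of 1 protein alone is at least 0.333.

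The single-protein calls rest on few libraries. Each was lost in the edgeR fit of that protein's 4 libraries alone (FOX2 adjusted p = 0.0813, TDP43 0.249, hnRNP M 0.0801). Leaving out FOX2 P-KO replicate 1 or 2 gave adjusted p = 1 for FOX2, and leaving out FOX2 WT replicate 1 or 2 gave 0.199 and 0.0663. Leaving out TDP43 P-KO replicate 1 or 2 gave 0.373 and 0.408 in TDP43. Leaving out hnRNP M P-KO replicate 1 or 2 gave 0.296 and 0.137 in hnRNP M, all by edgeR. The call common to the 3 proteins passed in each of these edgeR fits in which it was tested. Whether the fall differed between proteins could not be seen here (edgeR interaction, adjusted p = 1), because all P-KO libraries are at 0. Loss of binding and loss of the RNA itself cannot be told apart from these lists.

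The bins of the same length on either side were not wholly empty in P-KO. Just before the stretch (chr15:25235975-25261547), up to the SPA1 end, FOX2 had 0 and 6 window counts in P-KO, against 247 and 342 in WT, and TDP43 had 4 and 2 in P-KO, against 286 and 245 in WT. Just after it (chr15:25287121-25312693), from the start of SNORD109A on, FOX2 had 0 and 98 in P-KO, against 1647 and 3008 in WT, and TDP43 had 3 and 12 in P-KO, against 257 and 325 in WT. hnRNP M was at 0 in its P-KO libraries in both bins, against 105 and 93 in WT before the stretch and 249 and 486 after it. Both bins were also lower in P-KO in the common test (edgeR adjusted p = 7.01e-10 before and 7.90e-10 after the stretch). On the minus strand of the stretch no library listed any position.

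**Figure D1:**
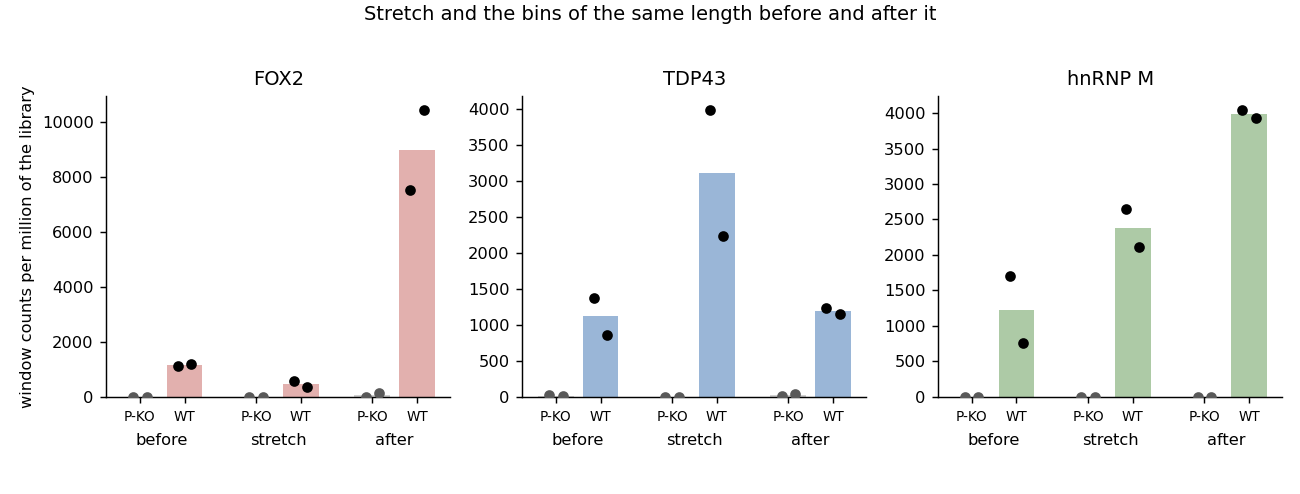
Window counts scaled to library depth (CPM, y axis, a scale of its own for each protein) in the stretch and in the bins of the same length just before and just after it. Points are libraries and bars are group means (n = 2), with P-KO in grey left of WT in colour. In WT, TDP43 is highest in the stretch, at 3985 and 2233 CPM, while FOX2 is lowest there, at 585 and 371 CPM. All 6 P-KO libraries are at 0 in the stretch.

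In WT cells the 3 proteins differed in where the stretch stands against its neighbours. TDP43 had more counts in the stretch than in either neighbouring bin, with 3985 and 2233 CPM in the stretch, against 1376 and 866 before it and 1237 and 1148 after it. Its counts in the stretch were 2.90 and 2.58 times those before it and 3.22 and 1.95 times those after it. FOX2 had fewer counts in the stretch than in either neighbour, at 0.518 and 0.313 times the bin before it and 0.0777 and 0.0356 times the bin after it. hnRNP M had 1.55 and 2.80 times the bin before, where it overlapped TDP43, and 0.655 and 0.535 times the bin after, between the other proteins. Of the counts in these 3 bins together, the stretch held 56.5% ± 5.53 in TDP43, 31.3% ± 0.381 in hnRNP M and 4.71% ± 2.29 in FOX2 (SD, n = 2 each), and the libraries of the 3 proteins did not overlap. An exact permutation test over the 3 proteins gave p = 0.0667, the smallest its 90 arrangements allow, so this design cannot take it below 0.05.

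FOX2 had 0.154 times the CPM of TDP43 in the stretch, with FOX2 WT at 585 and 371 CPM and TDP43 WT at 3985 and 2233 CPM. Across all bins this did not pass (edgeR log2 fold change FOX2 over TDP43 -2.70, adjusted p = 0.539), with 0.0425% of bins called lower in FOX2 and 0.23% higher. It passed with DESeq2 (adjusted p = 0.00199), in the edgeR fit of the 8 FOX2 and TDP43 libraries (0.0386) and by the number of windows (edgeR, 0.000148), in each case lower in FOX2. These settings also called more bins than the main fit. DESeq2 called 86 of 11761 bins lower in FOX2 and 196 higher, and the fit of 8 libraries 89 of 9860 lower and 247 higher. By the number of windows 127 of 2043 were lower and 185 higher. FOX2 had 0.201 times the CPM of hnRNP M (edgeR log2 fold change -1.18, adjusted p = 0.761; 0% of bins called lower in FOX2 and 1.51% higher). TMM scaling bears on that comparison. The median log2 fold change of all bins was 0.89 with it and -0.03 without it, and without it the log2 fold change of the stretch was -2.31. TDP43 had 1.31 times the CPM of hnRNP M, with 1 TDP43 library above both hnRNP M libraries and 1 between them (edgeR log2 fold change 1.52, or 0.39 without TMM, adjusted p = 0.565; 0.221% of bins called higher in TDP43).

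Among bins of this length the stretch ranked high in the TDP43 and hnRNP M WT libraries. It was number 7 and number 10 of 24577 and 29222 bins with signal for TDP43, and number 5 and number 6 of 5602 and 16108 for hnRNP M. For FOX2 it was number 65 and number 172 of 27550 and 30120. FOX2 signal consisted of few and low windows, 24 and 20 of them covering 264 and 220 nt, with a mean of 5.33 and 5.35 counts per window and at most 9 and 11. TDP43 had 86 and 84 windows covering 946 and 924 nt, with means of 9.63 and 7.52 counts and at most 96 and 33. hnRNP M had 17 and 53 windows covering 187 and 583 nt, with means of 9.59 and 4.91 counts and at most 18 in each library.

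**Figure D2:**
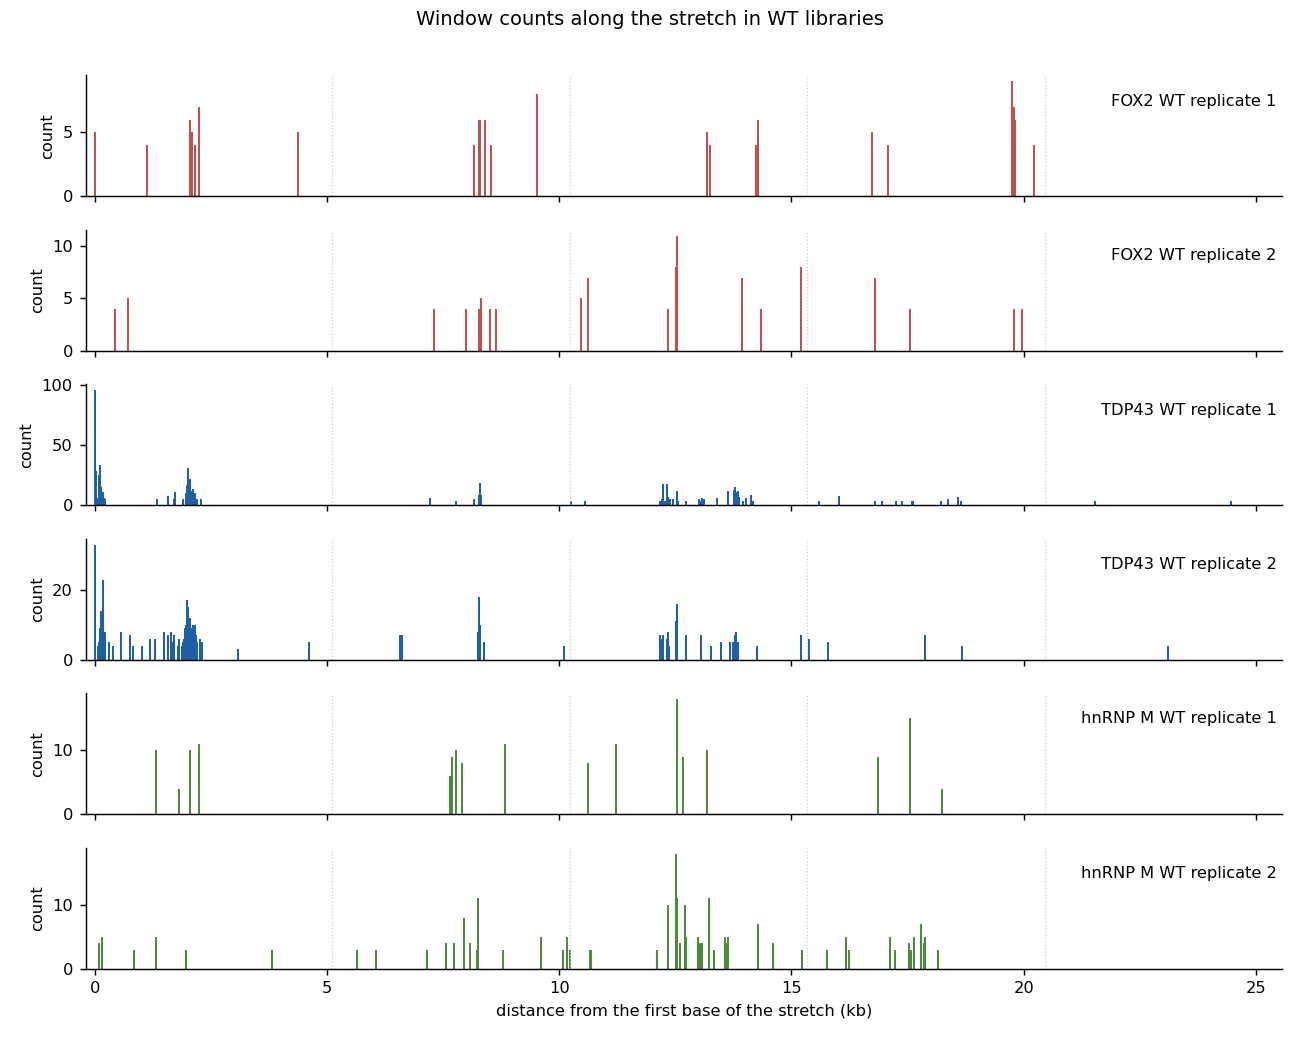
Count of each kept window (y axis, a scale of its own for each library) by distance from the first base of the stretch (x axis, kb) in the 6 WT libraries. Dotted lines part 5 equal segments. TDP43 counts stand in short runs, the highest at the first bases with counts of 96 and 33, and the last segment holds 3 TDP43 windows in all and none of FOX2 or hnRNP M. P-KO libraries have no window here.

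The annotation that the lists carry places nearly all of these positions in introns. Of the 861 positions, 396 (46.0%) lay in intron 8 of ENST00000551631.2, between 25261548 and 25263848, and 456 (53.0%) in intron 3 of ENST00000552781.1, between 25267184 and 25286017. Intron 9 and intron 10 of ENST00000551631.2 held 2 and 1. The remaining 6 positions, from 25265919 to 25266169, carried the name of ENST00000551631.2 without an intron number. They came from FOX2 WT replicate 1 and TDP43 WT replicate 2. RefSeq places the long noncoding RNA gene PWAR6 between PWAR5 and SNORD109A, on a later genome build. Its position within the stretch was not used here.

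Along the stretch, TDP43 signal lay at the SPA1 side and in the middle. The stretch was divided into 5 equal segments of 5114 nt, numbered from the SPA1 end. Segment 1 held 1848 ± 585 CPM of TDP43 in WT (60.5% ± 5.29 of its counts in the stretch), against 97.9 ± 94.3 CPM of FOX2 and 377 ± 270 CPM of hnRNP M (SD, n = 2 each). Segment 3 held 817 ± 491 CPM of TDP43, 137 ± 70.8 of FOX2 and 961 ± 73.2 of hnRNP M. TDP43 was thus highest in segment 1 in both libraries, while hnRNP M was highest in segment 3 in both, with 909 and 1012 CPM. In segments 2 and 4 both hnRNP M libraries were above both TDP43 libraries: hnRNP M had 596 ± 167 and 442 ± 17.8 CPM there, and TDP43 244 ± 9.55 and 174 ± 136. FOX2 had its most counts in segment 4 in replicate 1 (178 CPM) and in segment 3 in replicate 2 (187 CPM), so no segment was highest in both. Segment 5, the last before SNORD109A, held 8 and 4 TDP43 counts and was listed at 0 for FOX2 and hnRNP M.

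**Figure D3:**
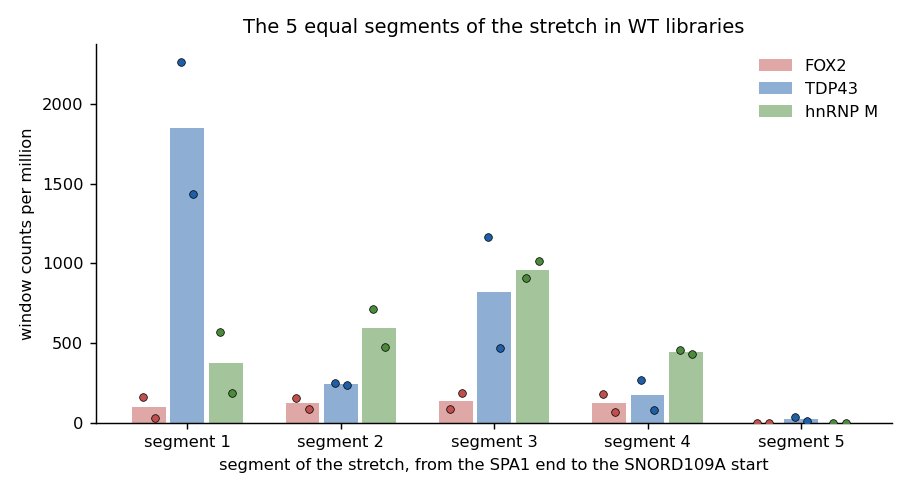
Window counts scaled to library depth (CPM, y axis) in the 5 equal segments of the stretch (x axis) in WT libraries of the 3 proteins. Points are libraries and bars are means (n = 2). TDP43 averages 1848 CPM in segment 1 and hnRNP M 961 CPM in segment 3, and segment 5 is nearly empty for each of them.

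Segments 1 to 4 each fell in P-KO in the test common to the 3 proteins, fitted over all 8920 tested bins of this length (edgeR adjusted p = 4.58e-08, 4.93e-07, 2.81e-08 and 1.43e-06 from segment 1 to segment 4), where 0.258% of bins were called lower and 0.0112% higher. Segment 5 had too few counts to be tested. For TDP43 alone, segments 1 and 3 passed (adjusted p = 0.0135 and 0.0279 by edgeR, 0.0336% of bins called lower), with 470 and 406 counts in segment 1 and 242 and 133 in segment 3 in WT. These 2 calls were lost in 13 of 23 other settings each. For FOX2 and hnRNP M alone 0 segments passed by edgeR, where 0% of bins were called lower (330 and 865 of all bins were at an unadjusted p under 0.05). DESeq2 called 4 segments for each, where 21 and 17 of 8920 bins were called lower. By edgeR on the number of windows, 4 segments passed in FOX2 and segments 2, 3 and 4 in hnRNP M, where 18 and 11 of 847 bins were called lower. Without TMM segment 3 passed in both (edgeR adjusted p = 0.0366 and 0.0344), where 8 of 8920 bins were called lower in each. By edgeR some segments of FOX2 or hnRNP M also passed without hnRNP M WT replicate 1 or 2, in fits that leave that group 1 library. Between proteins in WT, 0 segments passed by edgeR for FOX2 against TDP43 (0.482% of bins called lower in FOX2 and 1.69% higher, 1489 bins at an unadjusted p under 0.05). In segment 1, where FOX2 had 165 and 31.2 CPM and TDP43 had 2262 and 1435 CPM, the edgeR adjusted p was 0.136. DESeq2 called 1 segment lower in FOX2, where 158 of 8920 bins were called lower and 296 higher. The edgeR fit of the FOX2 and TDP43 libraries called 1, where 315 of 6321 bins were called lower and 749 higher. The number of windows (edgeR) gave 2, where 171 of 847 bins were called lower and 270 higher, so such calls were common among all bins in that setting. By edgeR 0 segments passed for FOX2 against hnRNP M (0.0112% of bins called lower in FOX2 and 4.67% higher) or for TDP43 against hnRNP M (0.661% of bins called higher in TDP43), with adjusted p = 0.691 to 1 and 0.158 to 1. The order of TDP43 and hnRNP M in segments 2 and 3 depends on the scaling: hnRNP M is higher as mean CPM, while the TMM-scaled log2 fold changes of TDP43 over hnRNP M are 0.15 and 0.93.

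The bound at the SPA1 end cuts through a TDP43 peak. In the first 50 nt of the stretch TDP43 had 131 and 33 counts in WT, and in the 50 nt before it, on the SPA1 side, 67 and 42. The highest TDP43 windows of the stretch were at 25261553 with 96 counts in WT replicate 1 and at 25261551 with 33 counts in WT replicate 2. On the SPA1 side a window at 25261539 had 45 and 26 counts. FOX2 had 5 counts in these first 50 nt in WT replicate 1 and was listed at 0 in replicate 2, and hnRNP M was listed at 0 in both. Without the first 50 nt TDP43 still had 3354 and 2117 CPM in the WT stretch, so 15.8% and 5.22% of its counts came from there. The fall in P-KO passed without them too (edgeR adjusted p = 8.26e-06 for TDP43).

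Site by site, 211 sites at least 11 nt apart were chosen from the positions of all libraries, from the highest summed count downwards. The value of a library at a site is its highest listed count within 5 nt. Positions less than 11 nt from a chosen site but more than 5 nt from every site therefore belong to no site. TDP43 was listed at 133 of them in WT, hnRNP M at 67 and FOX2 at 40, and no P-KO library at any. TDP43 was the protein whose replicates met most: 37 sites were listed in both WT libraries, 43.0% of the 86 of replicate 1 and 44.05% of the 84 of replicate 2. FOX2 libraries shared 1 site of 23 and 18, and hnRNP M libraries 1 site of 16 and 52. Across the 211 sites the CPM of the 2 TDP43 libraries correlated with r = 0.564, those of FOX2 with -0.0486 and those of hnRNP M with -0.0963 (Pearson, a description over sites that share their libraries). By rank (Spearman) the values were 0.266, -0.0501 and -0.116, so the TDP43 value depends on its highest sites. Sites that a library does not list entered as 0.

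The TDP43 sites found in both libraries carried the higher counts, with 4 to 96 in replicate 1 (median 12) and 4 to 33 in replicate 2 (median 9). TDP43 sites of 1 library alone had medians of 5 in both, and at most 18 and 12. FOX2 sites of 1 library alone had 4 to 9 counts in replicate 1 and 4 to 11 in replicate 2. hnRNP M sites of replicate 1 alone had 4 to 18 counts (median 10) and those of replicate 2 alone 3 to 18 (median 4). FOX2 counts are thus close to the lowest counts listed in the stretch, and a site missing from 1 library may lie just under the limit of its list.

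**Figure D4:**
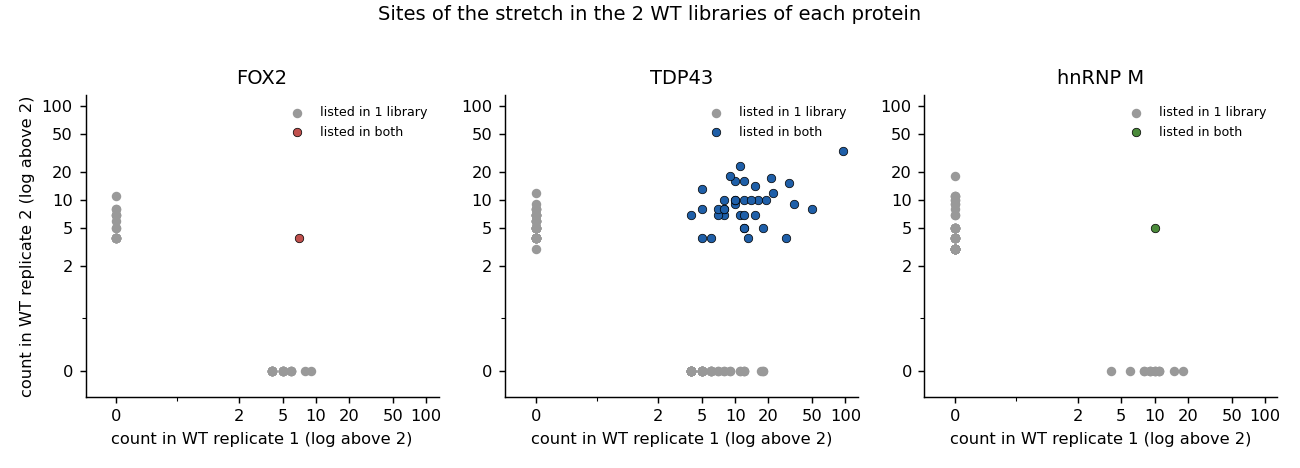
Count at each site of the stretch in WT replicate 1 (x axis) and WT replicate 2 (y axis) for the 3 proteins, on axes that are logarithmic above 2 and linear below, with 0 for sites that a library does not list. TDP43 has 37 sites listed in both libraries, and FOX2 and hnRNP M have 1 each.

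Windows were also compared by nearness, as the share with a window of another library within 100 nt. Of the windows of TDP43 WT replicate 1, 77.9% had a window of replicate 2 within 100 nt, and 79.8% the other way. For hnRNP M the shares were 76.5% of 17 windows in replicate 1 and 34.0% of 53 in replicate 2. FOX2 had 11 of 24 and 6 of 20. Windows of FOX2 and hnRNP M also lay near those of other proteins. Of the 24 windows of FOX2 replicate 1, 12 and 14 lay near a window of TDP43 replicate 1 and 2, and of the 20 of FOX2 replicate 2, 11 and 10 did. Near hnRNP M replicate 2 there were 11 of 24 and 10 of 20 FOX2 windows. Of the hnRNP M windows, 76.5% in replicate 1 and 56.6% in replicate 2 lay near TDP43 replicate 1, and 41.2% and 58.5% near TDP43 replicate 2. TDP43 has the most windows to meet, and these shares were not tested.

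The 5 highest TDP43 sites listed in both libraries all lay within 2002 nt of the first base. The site at 25261553, 5 nt after the first base, had 96 and 33 counts (289 ± 244 CPM, SD, n = 2), and FOX2 WT replicate 1 had 5 there. The site at 25261564 had 50 and 8 counts and is not independent of it, since the 50 was read within 5 nt on the flank of the higher site, and the kept window at 25261564 had 29. The site at 25261653 had 34 and 9 counts. Further on, the site at 25263550 had 31 and 15 counts and that at 25263535 had 21 and 17. All 5 were higher in replicate 1, the last pair by less (101 ± 68.0 and 80.6 ± 29.0 CPM). hnRNP M was listed at 0 at all 5.

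The 1 FOX2 site in both libraries was at 25281338, 19790 nt into the stretch, with 7 and 4 counts and no TDP43 or hnRNP M. It stood among other FOX2 sites of replicate 1: 9 counts at 25281294, 4 at 25281309 and 6 at 25281357. FOX2 replicate 2 was listed at 0 at those 3. The 1 hnRNP M site in both libraries was at 25262866, with 10 and 5 counts and neither of the other proteins.

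TDP43 sites stood in runs. Where TDP43 sites at most 50 nt apart were joined and runs of at least 5 sites kept, a rule chosen after the values were seen, there were 6 runs, which together cover 1224 nt or 4.79% of the stretch and hold 71 TDP43 sites, 33 of the 37 found in both libraries. They held 78.0% and 67.6% of the TDP43 counts of the stretch in WT, by construction a high share. In the same runs FOX2 had 30.5% and 7.48% of its counts and hnRNP M 12.9% and 16.9%.

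The first run, at 25261548 to 25261770, lies next to SPA1 and held 253 and 130 TDP43 counts in 13 and 11 windows. FOX2 had 5 and 0 counts there and hnRNP M 0 and 9. The second and longest run, 430 nt at 25263424 to 25263853, held 188 and 179 TDP43 counts. FOX2 replicate 1 had 22 counts in this run and FOX2 replicate 2 none, and hnRNP M had 21 and 3. The third run, 77 nt at 25269788 to 25269864, held 37 and 44 TDP43 counts, 12 and 4 of FOX2, and 0 and 14 of hnRNP M. It is the one run with FOX2 counts in both libraries.

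The other 3 runs lay in segment 3 of the stretch. The fourth, at 25273713 to 25273942, held 71 and 38 TDP43 counts. The fifth, at 25274546 to 25274661, held 20 and 7 and none of its 5 sites in both libraries. The sixth, at 25275283 to 25275430, held 77 and 29 TDP43 counts, and FOX2 and hnRNP M were listed at 0 there in all 4 libraries. In runs 4 to 6 replicate 1 had more counts than replicate 2, also as CPM (342 and 134, 96.3 and 24.7, and 371 and 102.5). In run 3 the libraries were close, at 178 and 155.5 CPM.

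Few sites were shared between proteins, and for FOX2 and hnRNP M few were shared between replicates too. FOX2 and TDP43 shared 10 sites listed in any WT library, 25.0% of the FOX2 sites and 7.52% of the TDP43 sites. FOX2 and hnRNP M shared 8, or 20.0% of the FOX2 and 11.9% of the hnRNP M sites. TDP43 and hnRNP M shared 15, or 11.3% of the TDP43 and 22.4% of the hnRNP M sites. No site was listed in both libraries of 2 proteins. Of the 211 sites, 112 were listed for TDP43 and neither of the others, 48 for hnRNP M alone and 26 for FOX2 alone. Positions that belong to no site can make these counts too high and the shared counts too low. In the first TDP43 run, for example, hnRNP M WT replicate 2 had 9 window counts but was listed at no site. Between its own libraries FOX2 shared 4.35% and 5.56% of the sites of each, hnRNP M 6.25% and 1.92%, and TDP43 43.0% and 44.05%. For FOX2 and hnRNP M, low overlap with another protein therefore does not mark a site as particular to 1 protein. With sites 31 nt apart and counts taken within 15 nt there were 143 sites, of which FOX2 and TDP43 shared 13 (37.1% of FOX2 sites), and 1 was listed in both libraries of TDP43 and of hnRNP M. Sites in both libraries of a protein then numbered 2 in FOX2, 29 in TDP43 and 3 in hnRNP M. With listed values of at most 0.01 they numbered 0, 29 and 1, in the same order.

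All 3 proteins met at 4 sites, which are named after their values were seen. 3 of them are neighbours, at 25274068, 25274082 and 25274094, some 12.5 kb into the stretch. At 25274068, FOX2 had 0 and 8 counts, TDP43 0 and 12, and hnRNP M 0 and 18, each time in replicate 2. At 25274082, FOX2 had 0 and 6, TDP43 12 and 16, and hnRNP M 0 and 11. At 25274094, FOX2 had 0 and 11, TDP43 8 and 0, and hnRNP M 18 and 0. The counts of 11 for FOX2 and 18 for hnRNP M are the highest of those proteins in the stretch, so the top windows of FOX2 WT replicate 2 and of both hnRNP M WT libraries lie within this one spot, between 25274063 and 25274094. FOX2 WT replicate 1 had nothing listed there. The other shared site, 25263606 in the second TDP43 run, had 6 and 0 counts of FOX2, 12 and 10 of TDP43 and 10 and 0 of hnRNP M.

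The end of the stretch towards SNORD109A was nearly bare. The last listed FOX2 positions were 5347 and 5604 nt before the end of the stretch, the last hnRNP M positions 7333 and 7414 nt, and the last TDP43 positions 1103 and 2463 nt. 3 sites lay in segment 5, at 25283085, 25284657 and 25286015, each with 4 TDP43 counts in 1 library. The longest run of bases without a listed position inside the stretch was 3791 and 6583 nt for FOX2, 4932 and 4440 nt for TDP43, and 5418 and 1844 nt for hnRNP M.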

How the data were processed

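The 12 iCLIP lists of H9 cells, 1 per library, were grouped by protein and genotype from the sample titles. The submitters' processing notes name Bowtie and GRCh37 (hg19). A peak caller and the handling of random barcodes: not given in the sources used here. Deposited counts are whole numbers per nucleotide, not normalized, with 2 as the lowest. The authors deposited a p-value or q-value beside each, never above 0.05; which of them it is was not stated.

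Isolated pairs of positions had equal counts in 94.6% to 100% of cases at up to 5 nt, against 14.1% to 81.3% at 6 to 60 nt. The 11 nt window goes with this, but only the cut-off at 5 nt was compared, so the edge of the window was not located. Window counts in bins of the length of the stretch, and of 1/5 of it (its last 3 bases left out), were tested with edgeR 4.0.16 in R 4.3.3 (filterByExpr, TMM, quasi-likelihood F test, threshold 0.05) over all bins. The fit held all 12 libraries and their 6 group means. For the common effect, protein was an additive term. DESeq2 1.42.0 was an alternative. The fits were also run on simulated counts, but the outcome is not reported here and is not used as a check of the results. Named were the stretch, its segments and neighbours, the 5 highest sites per protein listed in both WT libraries, sites of both libraries of all 3 proteins and sites of any P-KO library (there were 0 of the last 2 kinds). Python 3.11.15 and scipy 1.17.1 did the rest.

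The bounds, lists and tests were chosen with earlier results of these data known, and both the 6 TDP43 runs and the removal of the first 50 nt were chosen after seeing the data. Replicates of every group differed by more than sampling noise (chi-square per degree of freedom 4.04 to 8.88 over bins). The edgeR and DESeq2 p-values are set against a spread estimated over all libraries of a fit and shared across bins, with only 2 libraries per group. In the common test, differences between proteins in the genotype effect also enter that spread. Exact permutation p-values use no such estimate. No genome of hg19 was used, so no sequence is shown. The hnRNP M WT libraries are the shallowest in WT, and FOX2 has the fewest counts in the stretch.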

Additional observations from a re-analysis of the deposited data

How the results depend on the processing

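The fall of the stretch in P-KO common to the 3 proteins passed in all 22 alternatives tested (edgeR or DESeq2 adjusted p 5.64e-30 to 6.58e-08), and 4 segments were called in all 21 tested. In its 19 alternatives the exact permutation test gave the smallest p its arrangements allow (0.00926, or 0.0313 with a replicate block). That outcome was fixed, since every P-KO library is at 0 and every WT library above 0, so these 19 do not show how stable the fall is. For single proteins the calls were lost in the fit of that protein's libraries alone (FOX2 0.0813, TDP43 0.249, hnRNP M 0.0801) and with a replicate block (0.236, 0.0616 and 0.127). With the block, 4 segments passed in FOX2 and 4 in hnRNP M, against 0 without it, where 19 and 15 of 8920 bins were called lower. Leaving out 1 library gave 6.38e-06 to 1 (FOX2), 3.19e-10 to 0.408 (TDP43) and 1.02e-07 to 0.296 (hnRNP M), and each loss came without a library of that protein. Replicate numbers are not known to pair samples: P-KO and WT replicate differences correlated with r = 0.166 (FOX2), 0.117 (TDP43) and 0.0074 (hnRNP M) across bins. FOX2 against TDP43 in WT gained a call with DESeq2 (0.00199), by the number of windows (0.000148) and in the fit of these libraries (0.0386). In that order these settings called 86 of 11761, 127 of 2043 and 89 of 9860 bins lower in FOX2. They called 1, 2 and 1 segments against 0, beside 158 of 8920, 171 of 847 and 315 of 6321 bins of segment length called lower. FOX2 against hnRNP M gained one by the number of windows (0.00136), where 36 of 2043 bins were called lower in FOX2 and 123 higher. Positions with a listed value of at most 0.01 gave 128 sites in place of 211. The direction of FOX2 against TDP43 in the bin before the stretch, which did not pass, turned with DESeq2 (adjusted p = 0.994), a replicate block (1), a stricter filter (0.998) and without FOX2 WT or TDP43 WT replicate 2 (1 each). Of 660 other values, for neighbours and segments, 60 lost and 59 gained a call. Calls gained or lost had causes that were not tested. The low counts of FOX2 and the shallow hnRNP M libraries limit what single sites can show.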
